A study of Mus musculus with 19 samples.

Results

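The Pmch wells were single cells of the mouse lateral hypothalamic area (LHA) that spent a large share of their transcripts on Pmch, the gene of melanin-concentrating hormone (MCH). A well belonged to them when it was labelled LHA, had at least 1000 detected genes, gave at least 1% of its mouse gene counts to Pmch and held more counts of Pmch than of Hcrt. This took 70 of 1534 wells. They were compared with 1066 Hcrt wells, which had at least 1% of counts in Hcrt, the gene of the orexins (hypocretins), and more Hcrt than Pmch. A further 398 wells were under 1% for both genes and served as a second reference. Pmch and Hcrt values chose the classes, so they are given below as a description only. Both genes were left out of every gene test and of the totals behind scaled levels. The mitochondrial and ERCC percents were not recomputed without them.

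The donors were 7 male mice, 6 to 8 weeks of age, of 1 genotype (Agrp-IRES-Cre x Ai9), with no treatment named in the labels. In these mice the Cre recombinase of AGRP neurons switches on a red reporter, tdTomato, and the red axons were used to find the borders of the LHA before non-fluorescent cell bodies were picked by hand, so the reporter marks the dissected area and not the cells. Each well was sequenced with Smart-SCRB, a single-cell method in which every well of a plate carries its own barcode and transcripts are counted per gene. The cells filled 19 plates of 96 wells, with no label that ties a plate to a mouse, and the p-values over plates may therefore be too small. Per plate 44 to 86 LHA wells were kept, with 1835641 to 5067927 counts. The reporter row had 0 counts in the Pmch wells.

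MCH neurons and orexin neurons lie side by side in the LHA and both send axons through much of the brain. MCH is known for promoting feeding and sleep, and the orexins for wakefulness. Both peptides are cut from larger precursors in the secretory pathway by prohormone convertases, stored in dense-core vesicles and released next to fast transmitters, and MCH neurons are known to carry the GABA-synthesising enzyme GAD67 although glutamate release from them is well described. A share of MCH neurons is known to express the peptide gene Cartpt and the neurokinin B receptor gene Tacr3.

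The sequence just before the start of 4 genes on which the results turn is shown to place the classes in the genome: Pmch and Hcrt, which define the classes, and Cartpt and Tacr3, which divide the Pmch wells. Each is the run of 250 bases that ends at the base before the RefSeq start (GRCm38.p6), written 5′ to 3′ on the strand of the gene, with motif matches in capitals. Pmch lies at chr10:88090822-88091071 on the + strand, Cartpt at chr13:99900684-99900933 on the - strand, Tacr3 at chr3:134828757-134829006 on the + strand and Hcrt at chr11:100762932-100763181 on the - strand.
Pmch: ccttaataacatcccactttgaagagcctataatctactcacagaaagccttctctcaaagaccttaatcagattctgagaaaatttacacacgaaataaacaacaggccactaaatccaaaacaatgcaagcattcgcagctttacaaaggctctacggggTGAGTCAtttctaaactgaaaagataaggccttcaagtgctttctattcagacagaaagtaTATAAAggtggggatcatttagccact
Cartpt: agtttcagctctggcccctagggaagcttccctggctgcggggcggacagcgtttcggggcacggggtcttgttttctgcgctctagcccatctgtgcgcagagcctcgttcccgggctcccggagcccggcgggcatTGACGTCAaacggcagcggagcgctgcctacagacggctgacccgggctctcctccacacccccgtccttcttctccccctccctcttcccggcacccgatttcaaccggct
Tacr3: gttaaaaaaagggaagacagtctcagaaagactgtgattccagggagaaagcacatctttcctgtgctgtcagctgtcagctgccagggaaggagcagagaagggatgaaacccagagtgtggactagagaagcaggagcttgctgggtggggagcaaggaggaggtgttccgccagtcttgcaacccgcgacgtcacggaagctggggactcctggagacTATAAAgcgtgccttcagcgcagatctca
Hcrt: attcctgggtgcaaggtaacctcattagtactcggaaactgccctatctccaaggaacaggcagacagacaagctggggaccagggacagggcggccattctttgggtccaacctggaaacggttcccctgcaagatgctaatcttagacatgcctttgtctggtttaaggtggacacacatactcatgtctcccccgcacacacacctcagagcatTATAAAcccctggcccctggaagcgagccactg

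The motifs searched on both strands were TATAAA (the TATA box of many promoters), TAATCC (bound by OTX-type homeodomain factors), TAATTA (the core of many homeodomain sites), TGANTCA (the AP-1 motif) and TGACGTCA (the cyclic AMP response element). No 2 of them overlapped in these windows. TATAAA began 27 bases before the start of Pmch, 29 before that of Tacr3 and 33 before that of Hcrt, and 12.4% of 32851 windows of this length hold it. Pmch also had the AP-1 motif, 88 bases before its start (6.75% of windows), and Cartpt had the cyclic AMP response element (1.55% of windows). Among the 7859 windows of genes tested between Pmch and Hcrt wells, TATAAA stands in 5.85%, the AP-1 motif in 3.88% and the cyclic AMP response element in 2.98%. Neither homeodomain motif was found in the 4 windows. Their letters stand in 6.25% (TAATCC) and 4.84% (TAATTA) of all windows, and in 4.95% and 2.23% of the windows of genes tested. The shares were 5.21% and 2.15% of the 1114 windows of genes higher in Pmch than in Hcrt wells. They were 4.84% and 2.56% of the 1445 windows of genes lower there, so for these 2 motifs both groups lay near the genes tested. TATAAA stood in 6.37% of the windows of higher and 7.47% of lower genes, and the AP-1 motif in 4.49% and 4.98%. The cyclic AMP response element stood in 1.71% and 3.67%. Differences between these shares were not tested. Pmch itself (chromosome 10, 88091072 to 88092375, + strand) shares bases with Parpbp on the other strand. Counts of Parpbp were at 17.9 CPM (counts scaled to the same total in every sum, with Pmch and Hcrt left out) over the Pmch wells, 0.812 over the Hcrt wells and 0.63 over the wells outside both classes. The use of strand in counting is not stated, so reads of the pair cannot be told apart.

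Pmch took between 6.06% and 25.8% of the counts of a member, with a median of 17.6%, and the gap below the class was wide. The lowest member stood at 6.06%. Of the wells that were not members, 1 Hcrt well on plate 3 reached 5.96% Pmch with 6.91% Hcrt, and the next had 0.743%. Hcrt was counted in all 70 members at a median of 0.167% of counts, beside 0.189% in the wells outside both classes and 0.237% in wells labelled qRNA, which are not labelled as LHA cells. The median share in Pmch wells was no higher than in these wells. The wells labelled ERCC or Empty that served as background had a median of 15 Hcrt counts, at a median of 9.42% of counts. Pmch wells had a median of 111.5 Hcrt counts. Whether the Hcrt counts of Pmch wells are background was not tested. Pmch was at a median of 0.0188% of the counts of Hcrt wells.

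**Figure D1:**
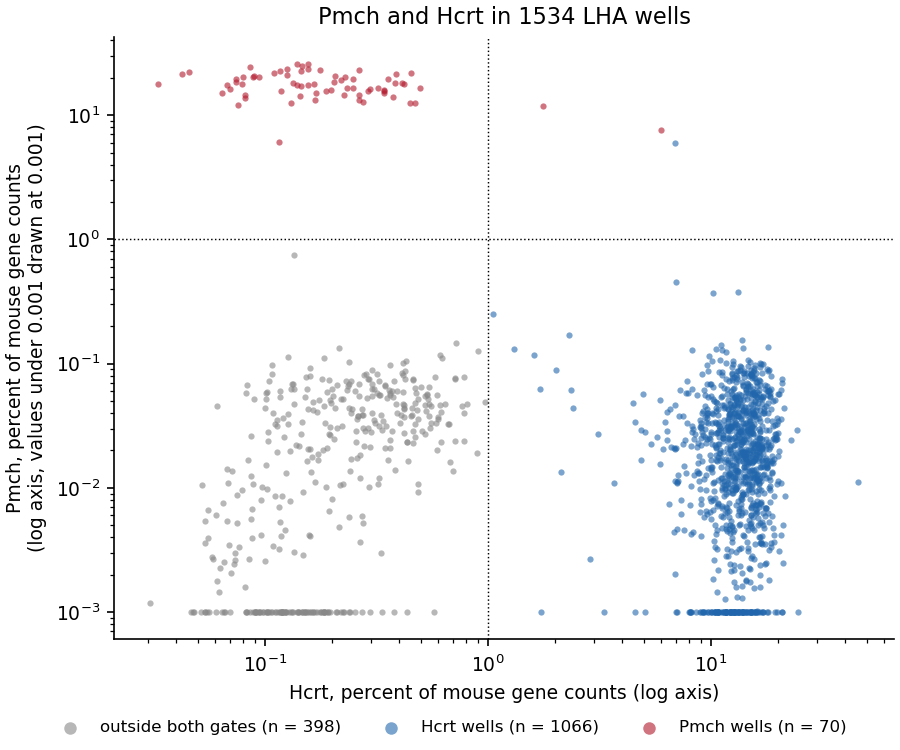
Each point is a well, with the percent of its mouse gene counts in Hcrt (horizontal, log axis) and in Pmch (vertical, log axis) and the 1% limits as dotted lines. The 70 Pmch wells form 1 group above 6%, apart from the 1066 Hcrt wells and the 398 wells under both limits, and 3 wells lie above 1% for both genes.

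A total of 3 wells passed 1% for both peptides: 2 Pmch wells, on plates 10 and 16, and the Hcrt well on plate 3. The plate 3 well had 218482 counts and 10159 genes, and its 1777 Cartpt and 44 Tacr3 counts made up most of the 3105 Cartpt and 67 Tacr3 counts of the 757 Hcrt wells tested. The plate 16 well held 18 of all 19 Lhx2 counts, 30 of all 54 Pdyn counts and 8 of all 9 Cidea counts of the Pmch wells. Plate 16 had too few members to enter the tests. Since wells were filled by hand, no doublet caller was run. For Pmch against Hcrt wells, a fold change is also given without these wells where leaving them out moved it by over 1.5 times. The comparison with wells outside both classes and the split by Cartpt were not run without them.

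Pmch took a smaller share of the counts in deep wells than in shallow ones. The 17 shallowest members had a median of 24680 other counts and 6024 Pmch counts (20.8% of the total), and the 17 deepest had 98742 other counts and 15678 Pmch counts (13.3%). Over the 70 wells Spearman's rho of the Pmch percent with the other counts was -0.68, a description in which both measures share a library. The highest Pmch count of any member was 16316 and the next 16245, while the highest Hcrt counts of the Hcrt wells were 16682 and 16664, although the deepest Hcrt well had 246338 other counts. The Pmch percent of a member thus moved with its depth.

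The marker genes given with the class were counted in most members. The class and its markers were chosen with earlier results of these data known, so their shares are a description and no test of the class. Of 70 wells, 31 had counts of all 4 of Cartpt, Tacr3, Otx1 and Zic1, 23 of 3, 8 of 2, 6 of 1 and 2 of none, while 1 of 1066 Hcrt wells and 0 of 398 other wells had all 4. Otx1 was counted in 66 of 70 (94.3%, 86.0 to 98.4) members with its exact 95% interval, Tacr3 in 54 of 70 (77.1%, 65.6 to 86.3), Cartpt in 51 of 70 (72.9%, 60.9 to 82.8) and Zic1 in 44 of 70 (62.9%, 50.5 to 74.1). The same genes were counted in 2.72%, 2.35%, 44.5% and 1.69% of Hcrt wells, at a median of 39088 counts (Pmch and Hcrt left out) against 49356 in members. Cartpt was thus no marker by presence, since counts of it were also found in 13 of 68 (19.1%, 10.6 to 30.5) wells labelled qRNA, at a median of 18152 counts. Its levels overlapped between the classes. Members had 0 to 3256 Cartpt counts with a median of 129.5, and Hcrt wells had 0 to 1777, with 1 or 0 in 75% of them. Among the members, 12 had Otx1 but neither Cartpt nor Tacr3.

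Members carried neuronal genes throughout. The sum over 10 pan-neuronal genes ran from 6152 to 15234 CPM in them, with all 10 genes counted, and no member had a non-neuronal list above it, unlike 11 Hcrt wells and 10 wells outside both classes. Oligodendrocyte precursor markers were at 0 in 66 of 70 members, mural markers in 66, ependymal and tanycyte markers in 60 and endothelial markers in 44, with Pdgfra, Pdgfrb, Foxj1 and Cldn5 at 0 in all. Astrocyte markers had a median sum of 184 CPM (highest 572), oligodendrocyte markers 33.2 (293) and microglia markers 94.1 (324), with Aldh1l1, Mog, Tmem119 and C1qc at 0 in all members. The peptides of the neighbouring arcuate nucleus were at 0 in 42 members and reached 121 CPM, with Npy and Kiss1 at 0.

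Members held more counts, and more genes at equal depth, than Hcrt wells of their own plate. In the 13 plates with at least 3 wells of each class (62 Pmch and 757 Hcrt wells), the plate median of counts without both peptides was 23673, 56897 and 94461 in Pmch wells (lowest, median and highest plate) and 17309, 42597 and 69279 in Hcrt wells. The ranges overlapped, but Pmch wells were higher in 12 of 13 plates, by 15973 counts on average (permutation test over plates, two-sided, p = 0.0023). At an equal 19000 counts a Pmch well showed 266 more genes, 4479 ± 134 against 4212 ± 118 (SD, n = 13 plates, higher in 13 of 13, permutation p = 0.00027), and 156 more with Pmch and Hcrt kept in the totals. Transcripts of the ERCC spike-in set took 1.90% ± 0.55 of counts in Pmch wells and 2.83% ± 0.43 in Hcrt wells (lower in 12 of 13 plates, permutation p = 0.00045). Mitochondrial transcripts took 1.62% ± 0.27 against 2.41% ± 0.32 (lower in 13 of 13, permutation p = 0.00027). The mitochondrial percent is of mouse gene counts with Pmch and Hcrt kept in, and the ERCC percent is the authors' own. Neither was compared without the peptides that chose the classes. Within the plates that share a Q number in their name, the difference in counts was 5963 (Q5, 5 plates), 14120 (Q6, 3), 26754 (Q7, 2) and 27322 (Q8, 3), and that in the ERCC percent ran from -0.64 to -1.14.

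Between the 2 peptide classes 7773 genes passed the filter on low counts, and edgeR's quasi-likelihood test on counts summed per plate and class called 1050 higher (13.5%) and 1361 lower (17.5%) in Pmch wells at an adjusted p under 0.05. The median log2 fold change of all genes tested was -0.11. Plate values of the 2 classes did not overlap for 398 genes (5.12%). The size criteria for naming a gene (a log2 fold change of 1, 20 CPM and 1 direction in 80% of plates) were met by 378 of the higher (4.86% of genes tested) and 535 of the lower genes (6.88%). Levels below are CPM over counts without Pmch and Hcrt, given as the lowest, the median and the highest of the 13 plates, and a log2 fold change is followed by its standard error. Against the 254 wells outside both classes in the same 13 plates, 4840 genes were tested, with 821 higher (17%) and 779 lower (16.1%), and plate values did not overlap for 135 (2.79%). These wells are a mixture of cells. A gene given below without a value for them is described against Hcrt wells only. Many of the genes named below share bases with a gene on the other strand. The partner has a name of its own for Gad1, Pcsk2, Igf1, Zic1, Nefl and Kcnip1 among others, and is a predicted gene for others such as Ache, Avpr1a and C1ql3. Reads of such pairs cannot be told apart. The filter passed genes that were high in Hcrt wells more readily than genes high in Pmch wells: Crhr2 passed with 0 counts in the 62 Pmch wells, and Npy2r did not, at 39.4 CPM over all Pmch wells and 1.15 CPM over all Hcrt wells. Counts and medians of gene lists cover the genes that passed, and are a description of those genes and not of the whole list. Each list count is to be read beside the 13.5% higher and 17.5% lower among all genes tested. Both comparisons share the same Pmch wells, so values are set side by side and not counted as independent.

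Tacr3, the receptor of neurokinin B (ENSMUSG00000028172; chromosome 3, 134829007 to 134934579, + strand, GRCm38), led the peptide receptors. It stood at 131, 468 and 851 CPM in Pmch wells and at 0, 0.602 and 17.8 CPM in Hcrt wells. The plates did not overlap, and the 1 high Hcrt value was that of plate 3. The log2 fold change was 7.96 ± 0.50 (adjusted p = 2.89e-08), and it was 9.03 without plate 3 and 9.08 without the wells that hold both peptides. Against the wells outside both classes it was 7.29 ± 0.42 (adjusted p = 1.18e-10), and 7.96 without plate 18.

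Of 41 neuropeptide receptor genes only 10 passed the filter, so their directions do not describe the list. Tacr3 was higher, and the lower ones were Crhr2, Avpr1a, Cckar, Trhr, Oprk1 and Adcyap1r1. Crhr2, a receptor of urocortins, had 0 counts in the 62 Pmch wells and 41.5 to 69.8 CPM in Hcrt wells, so it was at least 64.5-fold lower (3 counts over the class taken as the floor). Trhr, the receptor of thyrotropin-releasing hormone, was at 0, 0 and 10.5 CPM against 53.3, 63.7 and 84.5 (-4.46 ± 0.39, adjusted p = 2.32e-12), and no plates overlapped. Avpr1a, a vasopressin receptor, was at 0 to 9.19 CPM against 45.2 to 84.6 (-5.41 ± 0.45, adjusted p = 9.29e-13), with -6.42 without plate 6. Cckar, a cholecystokinin receptor, had 4 counts in Pmch wells and was at 11.9 to 40.7 CPM in Hcrt wells (-4.71 ± 0.56, adjusted p = 8.18e-09), with -6.18 without plate 10.

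Some receptor genes under the filter were counted in more members than Hcrt wells. Npffr1, a receptor of RF-amide peptides, was counted in 32 of 70 members (45.7%) and 4.97% of Hcrt wells, Npy2r, a neuropeptide Y receptor, in 34 (48.6%) and 2.25%, Prlr, the prolactin receptor, in 25 (35.7%) and 5.82%, and Oxtr, the oxytocin receptor, in 15 (21.4%) and 1.13%. In the wells outside both classes the shares were 6.78% for Npffr1, 22.9% for Npy2r, 23.4% for Prlr and 1.01% for Oxtr. All are at full depth, with median counts (Pmch and Hcrt left out) of 49356 in members, 39088 in Hcrt wells and 24581 in wells outside both classes. These 4 genes were chosen after their values were seen and have no test. Mchr1, the receptor of MCH itself, was counted in 12 of 68 (17.6%, 9.46 to 28.8) members and 53 of 956 (5.54%, 4.18 to 7.19) Hcrt wells at an equal 19000 counts, which left out 2 and 110 wells, and in 21 of 70 (30%, 19.6 to 42.1) and 82 of 1066 (7.69%, 6.16 to 9.46) at full depth. It had 0 counts in the 68 wells labelled qRNA, which allows a share of up to 4.41% by the limit of 3 counts that a count of 0 allows (exact upper limit 5.28%), at their median of 18152 counts.

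For Hcrtr1, an orexin receptor, no difference passed the test. It was at 0, 21.7 and 56.7 CPM in Pmch wells and 3.41, 14.6 and 24.04 CPM in Hcrt wells (0.47 ± 0.47, adjusted p = 0.48). Its plates overlapped, and the sign turned to -0.14 without the Q5 plates. Hcrtr2 had 3 counts in all members, and in the tested plates 1 against 167, a ratio of Hcrt over Pmch levels of 18.6 (95% counting interval 3.29 to 739). Lepr, the leptin receptor, had 2 counts in all members (2.86% of wells) and 20 in the Hcrt wells (1.31%), both few, and 100 in the wells outside both classes (10.6%). Insr, the insulin receptor, was at 0 to 30.9 CPM against 6.25 to 24.6 (-0.37 ± 0.43, adjusted p = 0.552).

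**Figure D2:**
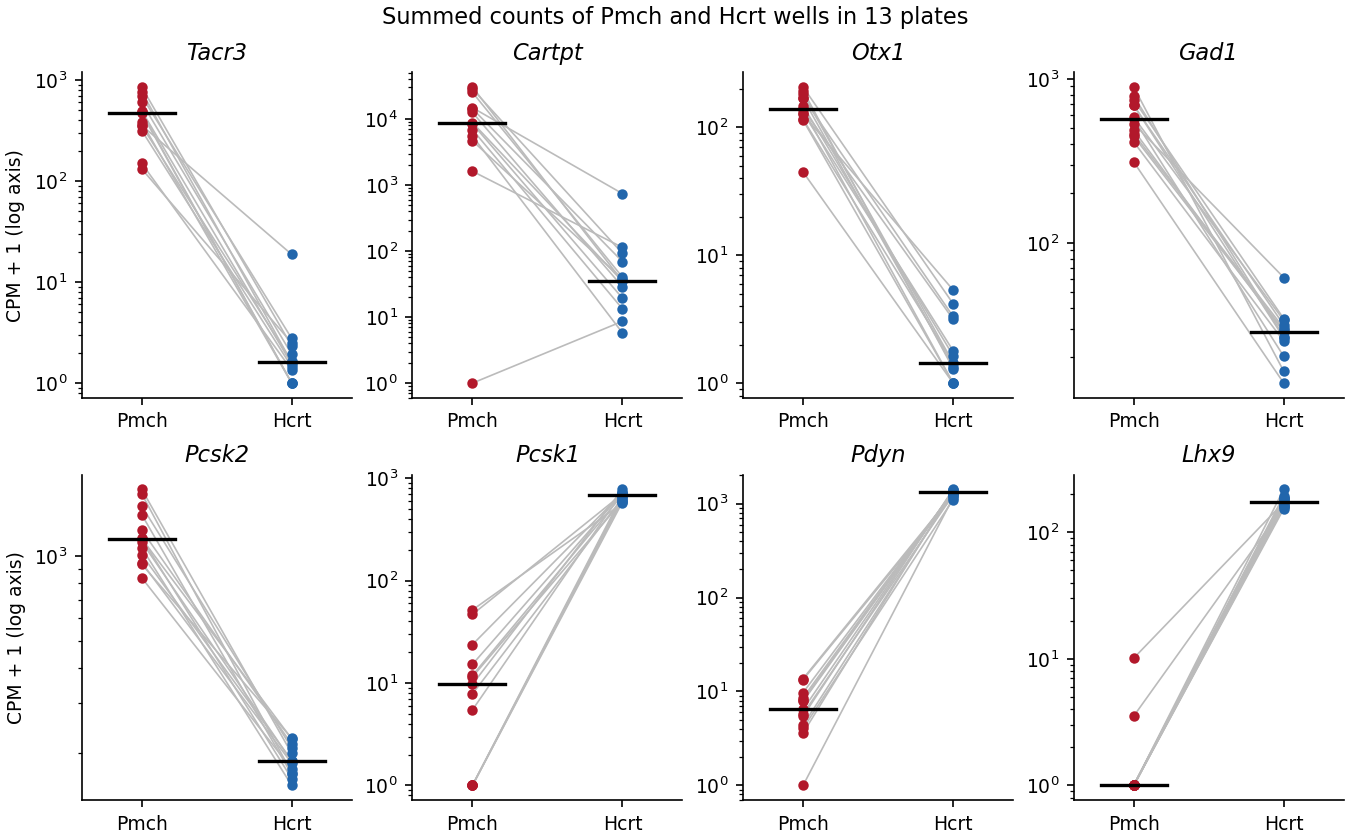
Each panel shows 1 gene, with the CPM + 1 (log axis) of the summed Pmch wells and Hcrt wells of 13 plates, a grey line joining the 2 values of a plate and a black bar at the median. Tacr3, Otx1, Gad1 and Pcsk2 are higher in the Pmch wells of every plate, Pcsk1, Pdyn and Lhx9 are lower in every plate, and Cartpt is higher in 12 of 13.

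Among the peptide precursors, Cartpt (ENSMUSG00000021647; chromosome 13, 99898489 to 99901091, - strand) was high in most members but not in all plates. Pmch wells stood at 0, 8797 and 30457 CPM and Hcrt wells at 4.75, 33.9 and 739 CPM (7.69 ± 0.75, adjusted p = 2.65e-06). Plate 17, whose 3 Pmch wells had no Cartpt count, was the 1 plate with a lower Pmch value. With a gate of 0.2% of counts in place of 1% the value was 4.91. The wells outside both classes also expressed it, at 1759, 3676 and 6838 CPM, and there the difference missed the threshold (1.27 ± 0.59, adjusted p = 0.123). It passed with 1.53, adjusted p = 0.00203 without plate 17 and with 1.67, adjusted p = 0.0139 without the plate as a block.

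Pdyn, the precursor of dynorphins (ENSMUSG00000027400; chromosome 2, 129686565 to 129699844, - strand), marked the other class. It was at 0, 5.43 and 12.7 CPM in Pmch wells and 1104, 1331 and 1423 CPM in Hcrt wells (-7.76 ± 0.13, adjusted p = 2.06e-35), and no plates overlapped. Of 32 precursor genes 9 were tested, 2 were higher (Cartpt and Nucb2, the precursor of nesfatin) and 5 lower (Pdyn, Nts, Vgf, Nppc and Pomc), with a median of -1.03. Vgf, a precursor of several secreted peptides, was at 8.73, 43.0 and 101.04 CPM against 582, 839 and 1038 (-4.14 ± 0.17, adjusted p = 1.47e-14), and it was also lower than in the wells outside both classes (-3.82 ± 0.23, adjusted p = 4.48e-11). Nts, the gene of neurotensin, was at 0 to 24.9 CPM against 69.0 to 379 (-4.51 ± 0.30, adjusted p = 9.81e-16). Nppc, a natriuretic peptide, was at 0 to 34.9 CPM against 24.4 to 49.2 (-3.13 ± 0.47, adjusted p = 1.08e-06), with -3.80 without plate 4. Pomc, at 0 to 20.3 CPM against 7.02 to 34.0 (-1.03 ± 0.37, adjusted p = 0.0316), lost its call without plate 2, 6 or 17 (adjusted p = 0.0726, 0.0658 and 0.0573). Nucb2 was at 247, 907 and 2321 CPM against 127, 166 and 209 (2.41 ± 0.25, adjusted p = 5.93e-06).

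Other peptide genes known from the LHA were nearly absent from members. Tac2 had 2 counts in all 70 wells, Tac1 and Crh 3 each, and Trh, Cck, Sst and Npy 0. Pnoc, the precursor of nociceptin, was counted in 22 members with 186 counts, against 14 Hcrt wells with 50. Ucn3 had 19 counts in 4 members.

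The 2 classes differed in their levels of both prohormone convertases, which were both counted in most Hcrt wells (94.7% for Pcsk2 and 98.3% for Pcsk1). Pcsk2, which encodes convertase PC2 (ENSMUSG00000027419; chromosome 2, 143546156 to 143816285, + strand), was at 835, 1149 and 1719 CPM in Pmch wells and 153, 186 and 225 CPM in Hcrt wells (2.63 ± 0.09, adjusted p = 1.72e-25). Pcsk1, which encodes PC1/3 (ENSMUSG00000021587; chromosome 13, 75089826 to 75134861, + strand), was at 0, 8.73 and 50.8 CPM against 568, 687 and 781 (-5.54 ± 0.31, adjusted p = 2.87e-09). For neither gene did any plates overlap, and the directions were opposite in 13 of 13 plates. Against the wells outside both classes Pcsk2 was again higher (3.92 ± 0.38, adjusted p = 2.80e-06) and Pcsk1 lower (-2.86 ± 0.43, adjusted p = 2.89e-06).

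Of 18 granin and processing genes 17 were tested, with a median of -0.13. The 4 higher (23.5%) were Pcsk2, Sec11c, Chga and Cpe. The 7 lower (41.2%) were Pcsk1, Scg2, Pam, Ptprn, Chgb, Scg3 and Pcsk1n. Among all genes tested 13.5% were higher and 17.5% lower. Scg2, the precursor of secretoneurin, was at 483, 1265 and 2544 CPM against 30218, 37251 and 43005 (-4.95 ± 0.27, adjusted p = 6.01e-09). Nucb2, Scg2, Chga, Chgb and Hspa5 were singled out after their values were seen. Chga, a granin of dense-core vesicles, was at 377 to 2337 CPM against 529.6 to 690.2 (0.73 ± 0.19, adjusted p = 0.00924), and Chgb at 458 to 1107 against 983 to 1421 (-0.79 ± 0.08, adjusted p = 6.41e-11). Pam, which amidates peptides, was at 157 to 483 CPM against 388 to 954 (-1.10 ± 0.10, adjusted p = 3.87e-12). Ptprn, a protein of the vesicle membrane, was at 423 to 847 against 999.99 to 1319 (-1.05 ± 0.07, adjusted p = 3.38e-16).

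Genes of protein entry into and folding in the endoplasmic reticulum (ER) were mostly higher in Pmch wells. Of 45 listed, 40 were tested, 21 were higher (52.5%) and 2 lower (5%, Creb3l1 and Srpr), with a median of 0.42. Among all genes tested 13.5% were higher and 17.5% lower. Ssr2, of the complex that helps precursors through the ER membrane, was at 259.8, 496 and 711 CPM against 167, 196 and 249 (1.29 ± 0.09, adjusted p = 1.55e-14). Ssr3 of the same complex was at 103.3 to 294 against 63.8 to 93.6 (1.07 ± 0.14, adjusted p = 6.16e-08), Kdelr2, which returns ER proteins from the Golgi, at 78.3 to 216 against 47.3 to 93.2 (1.02 ± 0.14, adjusted p = 1.90e-07), and Selenos, of ER-associated degradation, at 76.4 to 265 against 40.6 to 84.4 (1.15 ± 0.17, adjusted p = 3.63e-07). Hspa5, the ER chaperone BiP, was at 742 to 1724 CPM against 569 to 949.9 (0.56 ± 0.07, adjusted p = 1.58e-08). In the comparison with the wells outside both classes 35 were tested, 24 were higher (68.6%) and 0 lower, with a median of 0.83. Among all genes tested there 17% were higher and 16.1% lower. Members also held more counts and a lower ERCC percent, as given above, and the part of these in the result was not tested.

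Fast transmitter genes gave a mixed picture in members: the glutamate vesicle transporter with a GABA-synthesising enzyme and almost no GABA vesicle transporter. Gad1, which encodes GAD67 (ENSMUSG00000070880; chromosome 2, 70553072 to 70602014, + strand), was at 309.8, 568 and 889 CPM in Pmch wells and 12.9, 27.5 and 60.4 CPM in Hcrt wells (4.34 ± 0.14, adjusted p = 1.45e-21), with no overlap. It was 3.02 at the 0.2% gate. Gad2, which encodes GAD65, had 20 counts in 5 members, and was at 0 to 42.8 CPM against 8.84 to 48.2 (-2.93 ± 0.56, adjusted p = 6.42e-05); leaving out the Q5 or the Q8 plates gave -2.15 and -4.42. Slc32a1, the vesicular GABA transporter, had 2 counts in 1 of 70 members and 52 in the Hcrt wells, against 535 in 206 of 398 wells outside both classes.

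Against those wells Gad1 gave a small difference (0.33 ± 0.12, adjusted p = 0.039; 0.25 to 0.39 over the alternatives, with adjusted p up to 0.154), whereas Gad2 was far lower (-6.57 ± 0.46, adjusted p = 4.28e-08, and -8.01 without plate 18). At an equal 19000 counts Gad1 was counted in 68 of 68 (100%, 94.7 to 100) members, 167 of 956 (17.5%, 15.1 to 20.03) Hcrt wells and 234 of 287 (81.5%, 76.6 to 85.9) wells outside both classes. Gad2 was counted in 4 of 68 (5.88%, 1.63 to 14.4), 146 of 956 (15.3%, 13.05 to 17.7) and 237 of 287 (82.6%, 77.7 to 86.8) of them. Slc17a6, the vesicular glutamate transporter, was counted in 38 of 68 (55.9%, 43.3 to 67.9), 764 of 956 (79.9%, 77.2 to 82.4) and 50 of 287 (17.4%, 13.2 to 22.3). At full depth the 3 shares of Slc17a6 were 71.4%, 88.5% and 17.8%.

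Slc17a6 was at 9.19, 63.9 and 135 CPM in Pmch wells and 93.1, 152 and 198 CPM in Hcrt wells (-1.32 ± 0.18, adjusted p = 2.30e-07), lower in 13 of 13 plates though their ranges overlapped. Of 14 glutamate genes 9 were tested, 1 was higher (Slc1a1, a glutamate uptake transporter) and 5 lower, among them Slc17a6, Slc38a1, Slc38a2 and Glud1, with a median of -0.69. Slc38a1, a glutamine transporter, was at 52.0 to 161 CPM against 171 to 232 (-1.24 ± 0.14, adjusted p = 3.69e-09). Of the monoamine and cholinergic genes 5 of 17 were tested and Ache, acetylcholinesterase, was higher (598 to 1152 CPM against 255 to 405; 1.26 ± 0.07, adjusted p = 2.23e-17), also against the wells outside both classes (1.97 ± 0.12, adjusted p = 8.20e-16). Ddc was lower. Th, tyrosine hydroxylase, was counted at full depth in 27 of 70 (38.6%, 27.2 to 51.0) members and 256 of 1066 (24.02%, 21.5 to 26.7) Hcrt wells. At equal depth Th was counted in 16 of 68 (23.5%, 14.1 to 35.4) and 171 of 956 (17.9%, 15.5 to 20.5), and these intervals overlapped. Its pooled level was 22.3 CPM over all members and 26.4 CPM over all Hcrt wells. Slc18a2, the vesicular monoamine transporter, was counted at full depth in 3 of 70 (4.29%, 0.893 to 12.02) members and 11 of 1066 (1.03%, 0.516 to 1.84) Hcrt wells.

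Several transcription factors marked 1 of the 2 classes. Otx1, a homeodomain factor (ENSMUSG00000005917; chromosome 11, 21994764 to 22002897, - strand), was at 43.6, 138 and 205 CPM in Pmch wells and 0, 0.447 and 4.34 CPM in Hcrt wells (6.95 ± 0.32, adjusted p = 2.01e-20). Zic1, a zinc finger factor (ENSMUSG00000032368; chromosome 9, 91358058 to 91365810, - strand), was at 12.7, 40.2 and 131 against 0, 0 and 3.95 CPM (6.65 ± 0.56, adjusted p = 1.32e-12), with 7.29 without plate 3 and 7.37 without the wells that hold both peptides. Zic4 is the gene that overlaps it. Dmrtb1, a DM-domain factor, was at 109.8 to 229 against 0.442 to 7.90 CPM (5.73 ± 0.27, adjusted p = 3.58e-20). Against the wells outside both classes, Otx1 gave 7.48 ± 0.40 and Dmrtb1 5.49 ± 0.39 (adjusted p = 2.29e-17 and 1.05e-13).

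On the other side stood Lhx9, a LIM homeodomain factor (ENSMUSG00000019230; chromosome 1, 138825186 to 138848577, - strand), at 0, 0 and 9.12 CPM in Pmch wells and 152, 171 and 217 CPM in Hcrt wells (-6.90 ± 0.33, adjusted p = 4.96e-20), with -8.70 without plate 6. Lhx2 had 1 count in the 62 Pmch wells and 1629 in the Hcrt wells, a ratio of Hcrt over Pmch levels of 181 (95% counting interval 32.5 to 7172). Rfx4, a winged-helix factor, was at 0 to 32.0 against 184 to 258 CPM (-5.38 ± 0.35, adjusted p = 1.57e-12), with -6.23 without plate 10, which holds 1 of the wells with both peptides, and -6.30 without those wells. Rorb, a nuclear receptor, was at 0 to 6.19 against 66.1 to 153 CPM (-6.18 ± 0.35, adjusted p = 1.18e-17). Of 64 listed hypothalamic factors 13 were tested, 5 were higher (Otx1, Zic1, Zic4, Nr2f1 and Nr2f2) and 6 lower (Lhx9, Rfx4, Foxp2, Nkx2-2, Hmx2 and Peg3), with a median of -0.54.

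**Figure D3:**
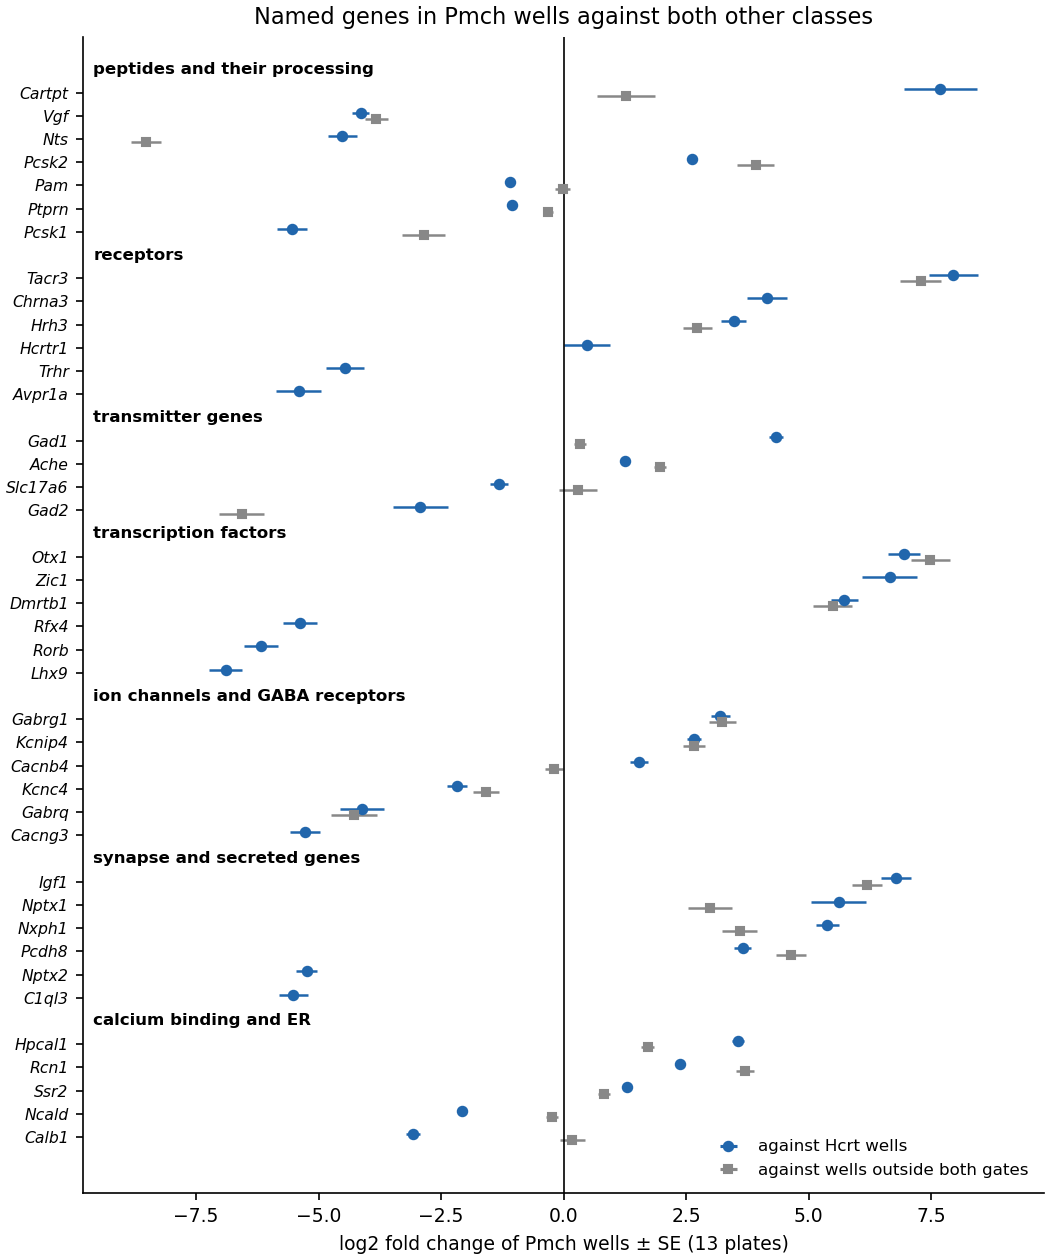
Log2 fold changes of Pmch wells with their SE over 13 plates, against Hcrt wells (blue circles) and against the wells outside both classes (grey squares, where the gene was tested there), for genes grouped by role. Tacr3, Otx1, Dmrtb1, Igf1, Pcsk2 and Hpcal1 lie to the right in both comparisons and Vgf, Nts, Gad2 and Gabrq to the left in both, while Gad1 and Calb1 lie near 0 against the wells outside both classes.

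Several secreted or surface genes were among the largest differences. Igf1, insulin-like growth factor 1 (ENSMUSG00000020053; chromosome 10, 87858265 to 87937042, + strand), was at 162, 217 and 399 CPM in Pmch wells and 0, 1.58 and 12.6 CPM in Hcrt wells (6.79 ± 0.31, adjusted p = 1.41e-15), and was counted in 66 of 70 members, 3.38% of Hcrt wells and 4.52% of wells outside both classes. Serpinf1, a secreted serpin known as PEDF, was at 42.3, 164 and 344 against 0, 0.792 and 2.84 CPM (7.04 ± 0.25, adjusted p = 2.79e-24). Il34, a ligand of the CSF1 receptor, was at 16.9 to 107.2 against 0 to 2.89 CPM (5.90 ± 0.47, adjusted p = 2.15e-13), Rspo3, which strengthens Wnt signals, at 54.1 to 209.5 against 0 to 7.503 (5.81 ± 0.37, adjusted p = 4.86e-15), and Adgrf5, an adhesion G protein-coupled receptor, at 21.2 to 197 against 0 to 3.97 (6.85 ± 0.38, adjusted p = 4.00e-18). Fam181b and Cpne5 gave 6.74 ± 0.47 and 5.71 ± 0.37 (adjusted p = 4.43e-15 and 8.07e-16). None of these 7 genes had overlapping plates against Hcrt wells. Against the wells outside both classes Cpne5 gave 1.01 to 1.37 over the main run and its alternatives, and 29.1% of those wells held a count. Serpinf1 gave 3.23 to 4.34 there, Rspo3 3.62 to 4.69 and Igf1 6.00 to 6.57. In the list of growth factors and receptors 19 of 48 were tested against Hcrt wells, 6 were higher and 8 lower, with a median of -0.59. Besides Igf1, the receptor genes Ntrk3 (2.80 ± 0.20, adjusted p = 1.50e-14) and Gfra1 (3.32 ± 0.34, adjusted p = 1.72e-10) were higher, and Nrg1, neuregulin 1, was lower (0 to 9.19 against 33.9 to 63.9 CPM; -4.99 ± 0.46, adjusted p = 1.58e-11). Against the wells outside both classes neither Ntrk3 (0.22 to 0.43 over the main run and its alternatives) nor Gfra1 (0.16 to 0.47) passed.

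The largest fold change of all was that of Mup6, of the major urinary protein family, whose copies are near-identical, so that its identity is uncertain. It was at 36.7, 243 and 491 CPM in Pmch wells and 0, 0 and 0.79 CPM in Hcrt wells (9.91 ± 0.27, adjusted p = 5.27e-28). It was counted in 48 of 70 members with 1009 counts, in 8 Hcrt wells with 9 and in 1 of the wells outside both classes with 1. The other 47 Mup rows had 47 counts in members together, 37 of them in Mup20, and 10 and 4 in the other classes.

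Receptors of GABA were more often higher. Of 21 GABA and glycine receptor genes 13 were tested, 9 were higher (69.2%) and 1 lower (7.69%), with a median of 0.79. Among all genes tested 13.5% were higher and 17.5% lower. Gabrg1, the gamma 1 subunit of the GABA-A receptor, was at 21.7 to 434 against 14.4 to 27.2 CPM (3.20 ± 0.20, adjusted p = 2.19e-16). The lower one was Gabrq, the theta subunit, at 0 to 52.4 against 74.5 to 113.99 CPM (-4.11 ± 0.45, adjusted p = 6.75e-08), with -5.06 without plate 4. Compared with the wells outside both classes, Gabrg1 was higher (3.24 ± 0.28, adjusted p = 1.08e-11) and Gabrq lower (-4.28 ± 0.48, adjusted p = 5.34e-09, -5.02 without plate 4).

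Glutamate receptors were divided: 16 of 25 were tested, 5 were higher and 5 lower, with a median of 0.10. The AMPA receptor subunits Gria2 (315 to 795 against 151 to 258 CPM; 1.34 ± 0.10, adjusted p = 5.58e-14) and Gria3 (21.4 to 107.5 against 4.75 to 22.8; 2.07 ± 0.29, adjusted p = 2.99e-07) were higher, whereas Gria1 was lower (21.7 to 192 against 137 to 209; -1.23 ± 0.17, adjusted p = 1.26e-07) together with Gria4 and the kainate receptor subunit Grik4 (-1.70 ± 0.40, adjusted p = 7.46e-04). Of these 4 genes with values, Gria2 alone had plates that did not overlap.

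Of 40 monoamine and acetylcholine receptor genes 7 were tested, 3 were higher and 2 lower, with a median of 0.00. Hrh3, the histamine H3 receptor, was at 48.0, 98.3 and 238 CPM against 3.54, 9.63 and 20.3 (3.47 ± 0.26, adjusted p = 2.41e-14) and was also higher than in the wells outside both classes (2.73 ± 0.30, adjusted p = 3.00e-09). Chrna3, the alpha 3 subunit of the nicotinic receptor, was at 21.4, 45.9 and 209.5 against 0.5678, 3.12 and 6.63 CPM (4.15 ± 0.41, adjusted p = 6.27e-11). Htr1a, the serotonin 1A receptor, had 0 counts in the 62 Pmch wells and was at least 33.8-fold lower in these plates. All 70 members held 13 Htr1a counts in 2 wells, 9 of them in the plate 16 well with both peptides, and the log2 fold change was -3.63 with plates of at least 2 wells a class. Adra1b, the alpha 1B adrenergic receptor, had 3 counts, a ratio of Hcrt over Pmch levels of 36.2 (95% counting interval 12.4 to 176).

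Ion channel genes changed in both directions. Of 59 potassium channel genes and partners 24 were tested, 3 were higher (12.5%) and 9 lower (37.5%), with a median of -0.54. Kcnip4, a partner of A-type channels, was higher (109.1, 429.5 and 639 against 36.7, 53.1 and 77.1 CPM; 2.66 ± 0.14, adjusted p = 2.66e-18), as was Kcna4, an A-type channel subunit (4.23 to 164 against 3.08 to 21.8; 1.69 ± 0.35, adjusted p = 1.61e-04). Kcnip1 (0 to 48.0 against 37.5 to 84.9 CPM; -3.54 ± 0.47, adjusted p = 1.72e-07, -4.45 without plate 4) and Kcnc4, a potassium channel subunit (8.73 to 89.0 against 121 to 192; -2.18 ± 0.20, adjusted p = 1.32e-11), were lower. Of 45 sodium, calcium, HCN and TRP channel genes 28 were tested, 4 were higher (14.3%) and 7 lower (25%), beside 13.5% and 17.5% of all genes tested, and 3 were higher and 3 lower against the wells outside both classes. Among those that did not pass the filter were Cacng5 (44.6 CPM over all Pmch wells and 0.577 CPM over all Hcrt wells) and Trpc5 (24.9 and 0.534 CPM). Cacng3, an AMPA receptor auxiliary subunit of the calcium channel gamma family, was at 0 to 18.4 against 134 to 175 CPM (-5.27 ± 0.31, adjusted p = 2.05e-17), and Trpc7 and Cacng4 were also lower (-2.70 ± 0.51 and -1.77 ± 0.38, adjusted p = 5.11e-05 and 3.23e-04). Cacnb4, a calcium channel beta subunit, was higher (1.54 ± 0.19, adjusted p = 1.18e-08). Against the wells outside both classes it did not pass (-0.28 to -0.12 over the main run and its alternatives).

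**Figure D4:**
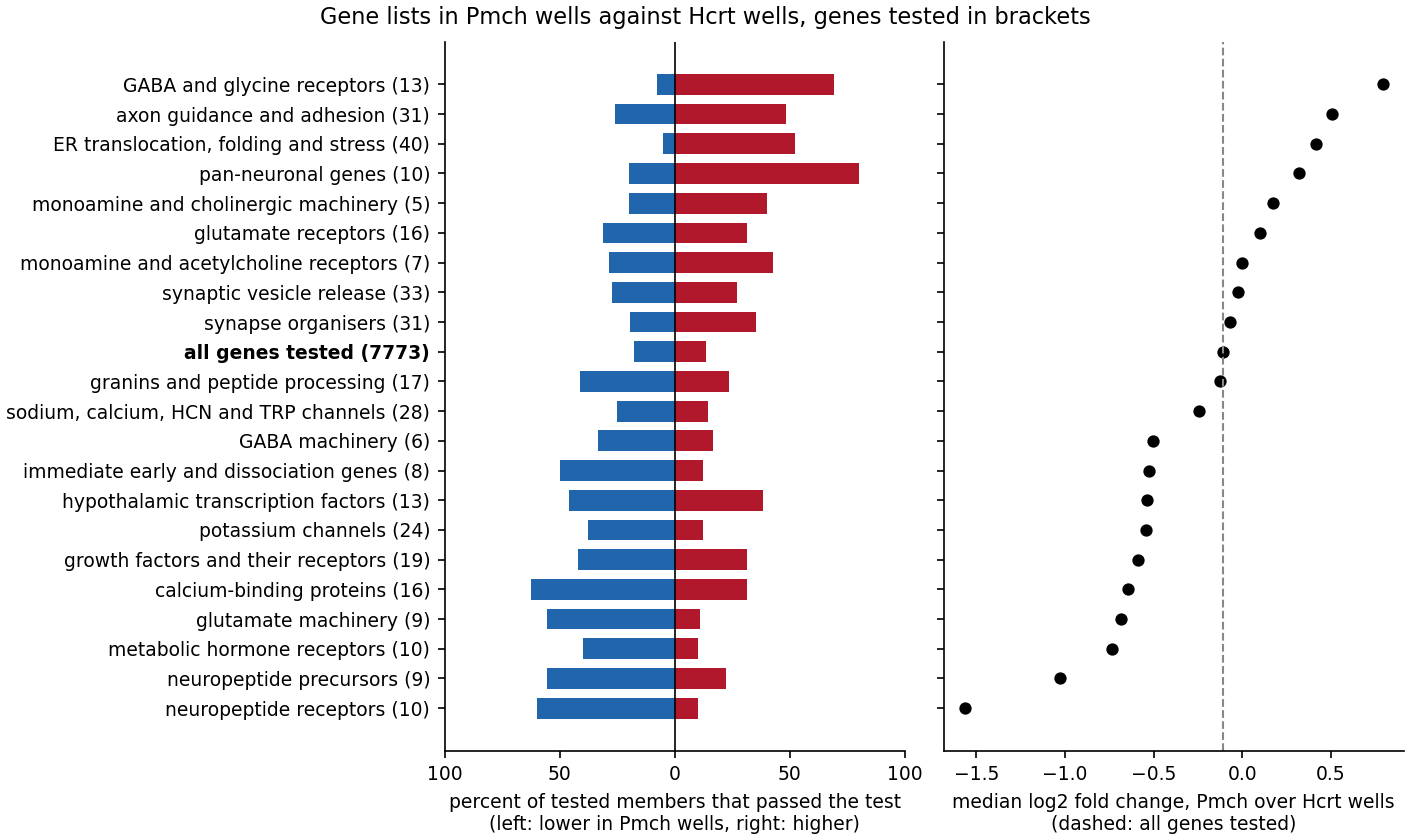
For each list with at least 5 tested genes, the left panel gives the percent of tested members that were lower (left) or higher (right) in Pmch wells at an adjusted p under 0.05, and the right panel the median log2 fold change, with the median of all 7773 genes tested (-0.11) as a dashed line. Of 45 genes of ER translocation, folding and stress 40 were tested, 21 lie to the right and 2 to the left, with a median of 0.42. Lists with few tested genes, such as the neuropeptide receptors (10 of 41), show only the genes that passed the filter.

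Calcium-binding proteins split by gene. Of 23 listed 16 were tested, 5 were higher and 10 lower, with a median of -0.65. Hpcal1, a neuronal calcium sensor (chromosome 12, 17690856 to 17791933, + strand), was at 346, 425 and 587 CPM against 21.8, 35.1 and 51.7 (3.57 ± 0.12, adjusted p = 3.70e-25) and Rcn1, reticulocalbin of the ER, at 683, 821 and 1400.3 against 134, 163 and 209 (2.38 ± 0.09, adjusted p = 4.03e-24). Neither overlapped in any plate. Calb1, calbindin, was at 91.7, 143 and 308 against 1189, 1396 and 1571 CPM (-3.07 ± 0.14, adjusted p = 1.73e-12), and Ncald, neurocalcin, at 196 to 629 against 1324 to 1748 (-2.07 ± 0.09, adjusted p = 6.07e-19). Against the wells outside both classes Hpcal1 (1.72 ± 0.13, adjusted p = 7.60e-13) and Rcn1 (3.70 ± 0.19, adjusted p = 6.94e-13) were higher, while Calb1 (0.18 ± 0.25, adjusted p = 0.629; -0.04 without plate 3) and Ncald (-0.24 ± 0.12, adjusted p = 0.116) did not pass.

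The pentraxins, which cluster AMPA receptors at synapses, differed in opposite directions. Nptx1 (chromosome 11, 119538719 to 119547753, - strand) was at 12.4, 377 and 1412 CPM in Pmch wells and 1.39, 6.34 and 54.5 CPM in Hcrt wells (5.61 ± 0.56, adjusted p = 3.36e-06). Nptx2 was at 0, 5.24 and 29.6 against 254, 334 and 457 (-5.24 ± 0.22, adjusted p = 5.56e-22). Nxph1, a ligand of neurexins, was at 65.2, 183 and 288 against 0.694, 4.17 and 10.7 CPM (5.38 ± 0.24, adjusted p = 2.53e-21), and C1ql3, a secreted synapse organiser, at 0 to 42.7 against 337 to 496 (-5.51 ± 0.30, adjusted p = 7.95e-12). Of 42 synapse organisers 31 were tested, 11 were higher and 6 lower, with a median of -0.07. Of 43 vesicle release genes 33 were tested, with 9 higher, 9 lower and a median of -0.02. The complexins Cplx1 (1.47 ± 0.15, adjusted p = 3.10e-10) and Cplx2 (2.06 ± 0.19, adjusted p = 7.79e-12) and the calcium sensor Syt1 (1.72 ± 0.15, adjusted p = 1.18e-08) were higher, and Syt7 was lower (-2.47 ± 0.28, adjusted p = 2.19e-09). Cplx1 was lower than in the wells outside both classes (-1.19 ± 0.16, adjusted p = 1.76e-07).

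Axon guidance and adhesion genes were higher for 15 and lower for 8 of the 31 tested of 73, with a median of 0.51. Pcdh8 and Pcdh9, 2 protocadherins, were at 131 to 921 against 19.3 to 86.9 CPM (3.66 ± 0.18, adjusted p = 4.19e-13) and 391 to 916 against 96.0 to 157 CPM (2.21 ± 0.09, adjusted p = 8.17e-23), and Ntng1, netrin G1, at 68.0 to 276 against 17.3 to 40.3 (2.71 ± 0.16, adjusted p = 5.39e-17). Efnb3, ephrin B3, was lower (0 to 45.9 against 80.8 to 254; -3.30 ± 0.25, adjusted p = 7.12e-14). Pcdh8 (4.64 ± 0.31, adjusted p = 1.83e-09), Pcdh9 (1.92 ± 0.13, adjusted p = 7.72e-15) and Ntng1 (2.91 ± 0.24, adjusted p = 4.77e-12) were also higher than in the wells outside both classes. Rbfox1, a splicing regulator, was at 59.8 to 292 against 0.54 to 7.503 CPM in Hcrt wells (5.84 ± 0.24, adjusted p = 2.71e-22), and 3.73 at the 0.2% gate. Against the wells outside both classes it was only 0.71 to 0.90 over the main run and its alternatives. It was counted in 61.3% of those wells and 6.00% of Hcrt wells.

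Further genes low in members had few counts there. Cidea, a lipid droplet protein, had 0 counts in the 62 Pmch wells and was at least 65.9-fold lower in these plates, although all 70 members held 9 counts. Msn, Mt1, Pgr15l, Cdh20 and Npbwr1 had 1 count each, with ratios of Hcrt over Pmch levels of 159 (95% counting interval 28.4 to 6269.9), 139.6 (25.01 to 5518), 127 (22.7 to 5007), 113.7 (20.4 to 4497) and 87.1 (15.6 to 3445). Fam19a1 had 2, a ratio of 122 (33.7 to 1006), and Pcdh15 had 3, a ratio of 89.9 (30.7 to 436). Tcerg1l was at 0 to 7.12 against 53.0 to 105.04 CPM (-6.01 ± 0.42, adjusted p = 5.09e-15), with -6.85 without plate 10. These values rest on few counts and moved when plates with 2 wells of a class, plate 16 among them, were added (17 plates). Log2 fold changes were then -4.89 for Cidea, -3.49 for Cdh20, -4.56 for Lhx2, -4.59 for Fam19a1, -4.88 for Mt1, -4.50 for Pgr15l, -4.72 for Tcerg1l and -5.20 for Pcdh15. Those of receptor, factor and peptide genes above were -7.34 for Crhr2, -3.66 for Adra1b, -4.45 for Avpr1a, -4.08 for Cckar, -5.25 for Rorb, -6.65 for Pdyn and -3.76 for Nts, and each stayed lower with its call.

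Of 22 metabolic hormone receptor genes 10 were tested, 1 was higher (Rxrg) and 4 lower (Ednrb, Ghr, Nr3c1 and Igf1r), with a median of -0.73. Ghr, the growth hormone receptor, was at 0 to 20.5 CPM against 22.1 to 48.1 (-3.16 ± 0.47, adjusted p = 7.92e-07), and Nr3c1, the glucocorticoid receptor, at 0 to 42.3 against 19.8 to 38.8 (-1.68 ± 0.39, adjusted p = 8.31e-04; -1.40, adjusted p = 0.0503 without the Q5 plates). Immediate early and dissociation genes were lower for 4 and higher for 1 of the 8 tested of 23 (median -0.52). Fos, an activity-induced factor, was at 37.2, 114.5 and 265 CPM against 358, 442 and 647 (-1.999 ± 0.16, adjusted p = 1.24e-10) with no overlap, Fosl2 at 0 to 42.3 against 10.3 to 101.5 (-3.03 ± 0.41, adjusted p = 1.06e-07) and Egr1 at 0 to 71.6 against 29.0 to 81.5 (-1.38 ± 0.30, adjusted p = 4.05e-04). Against the wells outside both classes Fos gave 0.49 ± 0.27, adjusted p = 0.166 and Egr1 -1.35 ± 0.36, adjusted p = 0.00399.

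Of the marker lists of non-neuronal cells, 5 genes passed the filter in the comparison with Hcrt wells, 2 were higher, among them Aldoc, and 1 lower (Mbp). Mbp, of myelin, was lower in Pmch wells (0 to 12.7 against 27.9 to 197 CPM; -5.14 ± 0.39, adjusted p = 4.32e-14), and -3.87 without the wells whose non-neuronal list exceeded the pan-neuronal one. Of 10 pan-neuronal genes 8 were higher, among them Nefl (2.68 ± 0.23, adjusted p = 1.91e-09) and Rbfox3 (1.52 ± 0.20, adjusted p = 6.58e-08), and 2 lower. Rbfox3 was lower than in the wells outside both classes (-0.68 ± 0.18, adjusted p = 0.00398) and Nefl gave -0.49 ± 0.21, adjusted p = 0.0793 there, but passed without plate 3 (-0.57, adjusted p = 0.044) or plate 10 (-0.60, adjusted p = 0.01).

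Within the Pmch wells Cartpt was either high or near absent in most wells. Of 70 wells 41 had at least 200 CPM of Cartpt and 29 had less, 19 of these with no count. Only 7 wells lay between 50 and 1000 CPM, the nearest to the limit at 165 and 355 CPM, so the limit cuts a range with few wells near it. The Cartpt-high wells ran from 355 to 40133 CPM with a median of 18748. Of 17 plates, 12 held wells of both kinds, 2 plates only high and 3 plates only low ones. The median counts without both peptides were 51098 in high and 40296 in low wells, and the median Pmch percent was 16.6% and 17.9%.

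**Figure D5:**
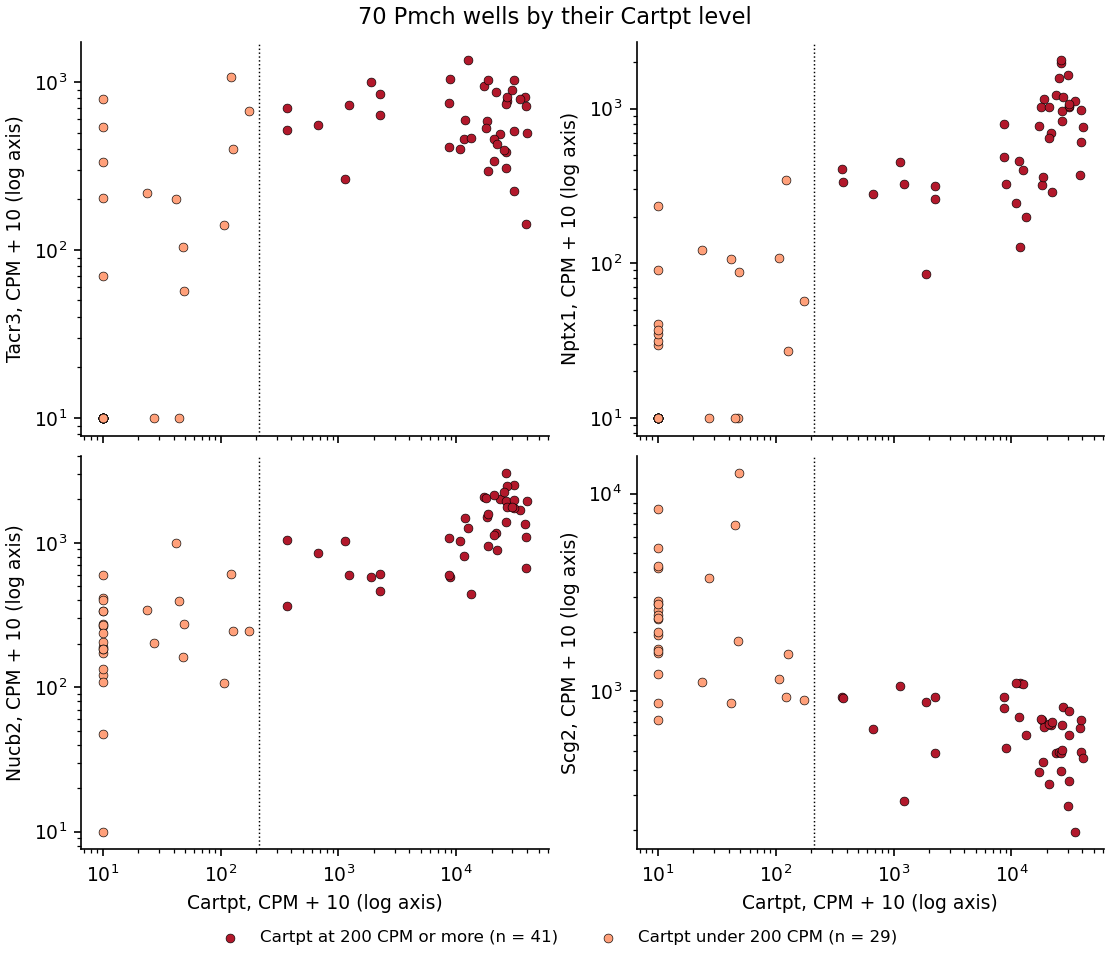
Each point is 1 of the 70 Pmch wells, with its Cartpt level (horizontal) against that of Tacr3, Nptx1, Nucb2 or Scg2 (vertical), all as CPM + 10 on log axes, and the 200 CPM limit as a dotted line. Wells at or above the limit (n = 41) all hold Tacr3 and lie low for Scg2, and wells below it (n = 29) spread from 0 upward for Tacr3 and Nptx1.

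Tacr3 followed Cartpt only in part. All 41 Cartpt-high wells had Tacr3 counts, at 132 to 1350 CPM, and 13 of 29 Cartpt-low wells had them, at 47.0 to 1056 CPM. Over the 70 wells Spearman's rho with Cartpt was 0.61 for Tacr3, 0.88 for Nptx1, 0.85 for Nucb2, -0.81 for Scg2 and -0.003 for the Pmch percent, as a description of wells that share libraries and a range of depths (rho of Cartpt with the other counts 0.25). Otx1 was counted in 40 of 41 high and 26 of 29 low wells, Gad1 in 41 and 28, Zic1 in 27 and 17, and Slc17a6 in 31 and 19. The split thus ran inside a class whose other markers stood on both sides.

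In the 5 plates with at least 2 wells of each kind (14 and 14 wells) 2278 genes were tested with edgeR, 3 were higher (0.132%) and 2 lower (0.0878%) in Cartpt-high wells, and 144 had an unadjusted p under 0.05. With DESeq2, 9 were higher and 3 lower. Nptx1 was at 315, 468 and 659 CPM in high wells and 16.7, 34.0 and 237 CPM in low wells (lowest, median and highest of 5 plates; edgeR 3.12 ± 0.43, adjusted p = 3.50e-04), and 4.03 without plate 11. Nucb2 was at 717, 1083 and 1239 against 194, 284 and 518 CPM (edgeR 1.75 ± 0.21, adjusted p = 1.52e-04). Scg2 was at 517, 742 and 876 against 1115, 2186 and 4933 CPM (edgeR -1.86 ± 0.23, adjusted p = 1.52e-04). The plate 10 well with both peptides was among the low wells and held 442 of their 1785 Scg2 counts, and the split was not run without it. Plates did not overlap for any of the 3 genes (1.19% of genes tested). Cbln1, cerebellin 1 of the synapse, was at 298 to 488 against 31.8 to 184 CPM (edgeR 1.86 ± 0.33, adjusted p = 0.00879; short of the threshold without plate 2 or 3, and 1.501, adjusted p = 0.252 with the limit at 1000 CPM), and Rit2, a small neuronal GTPase, at 647 to 998 against 1406 to 1878 CPM (edgeR -0.95 ± 0.17, adjusted p = 0.00879; short of it without plate 2, and -0.67, adjusted p = 0.277 with the limit at 1000 CPM).

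Tacr3 was at 432, 547 and 780.3 CPM in high wells and 45.4, 138 and 764 CPM in low wells. It was higher in 4 of 5 plates but overlapped, and did not pass (edgeR 1.61 ± 0.53, adjusted p = 0.492). With no filter on low counts it passed, at 1.66, adjusted p = 1.23e-04 (edgeR). Without plate 11, whose low wells stood at 764 CPM, it was 2.31, adjusted p = 9.18e-04 (edgeR), and with the limit moved to 1000 or 50 CPM it was 2.51, adjusted p = 3.81e-04 and 2.09, adjusted p = 0.0138 (edgeR). The number of tested plates, and the 14 wells of each kind, limit what this split can show.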

How the data were processed

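The authors deposited whole-number counts per gene and well for 19 plates, with total counts and an ERCC percent per well. Per the submitters' processing notes the tools were bcl2fastq 2.20, cutadapt 2.1.0, STAR and STARsolo 2.7.5c, Seurat 2.3.4 and R 3.4.3 on GRCm38. Per the labels' design text, read 1 (27 bp) held the barcode and a molecular identifier and read 2 (125 bp) the cDNA. Which annotation was used, whether strand was used and whether identifiers were collapsed is not given in the sources used here, so counting intervals cover counting error only. Of 52636 gene rows 99.6% matched GENCODE M21, which gave positions.

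Of 1824 wells 1612 were labelled LHA, and 78 of them with under 1000 genes were left out. The members and lists were chosen with earlier results of these data known. Counts without Pmch and Hcrt were summed per plate and class for plates with at least 3 wells of each, and tested with edgeR 4.0.16 (R 4.3.3): filterByExpr, TMM scaling, robust quasi-likelihood fit, plate as a block, Benjamini-Hochberg adjustment over all genes tested. The plate is the block because wells of a plate share their library. The Cartpt split (200 CPM) asked for 2 wells a side. Well quantities were compared as plate medians by sign-flip permutation over plates. Intervals of shares are Clopper-Pearson at 95%. Equal depth means wells thinned to 19000 counts.

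Genes were named by rule: a call at an adjusted p under 0.05, 1 or more on the log2 fold scale in size, a level of 20 CPM or more in the class where it was higher, and 1 direction in 80% of plates. Of these the 15 largest changes each way and up to 4 genes of each list were taken, with 15 genes named regardless and predicted genes left out. Some of the genes this rule named are not reported here. On simulated counts the test recovered 69.9% of 2-fold and 97.8% of 4-fold changes between Pmch and Hcrt wells (7733 genes), 73.6% and 98.9% against wells outside both classes (4997) and 38.6% and 98.7% for the Cartpt split (2243). Alternatives covered gates, filters, scaling, DESeq2 1.42.0, the block, thinning and left-out plates. The one without wells rich in non-neuronal markers was chosen after seeing the data.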

Additional observations from a re-analysis of the deposited data

Results flagged for a closer look

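In the Cartpt split, 1 of 5 plates stood apart from the others for 3 genes of 12 series of plate values examined, where chance sets a plate apart in about 1 of 20 such series. Nptx1 was at 237 CPM in the Cartpt-low wells of 1 plate, with the nearest plate at 43.8 CPM. Tacr3 was at 764 CPM in the Cartpt-low wells of plate 11, with the nearest plate at 244 CPM. Cbln1 was at 488 CPM in the Cartpt-high wells of 1 plate, with the nearest at 339.7 CPM.

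A well labelled Empty on plate 15, used in no comparison, held 100707 counts over 5682 genes with 8.55% of counts on ERCC. It had 1855 Cartpt, 22 Gad1, 45 Gad2 and 12 Slc32a1 counts, 0 of Pmch and 159 of Hcrt, and was left out of the wells labelled ERCC or Empty that served as background.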

How the results depend on the processing

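The number of genes higher in Pmch than in Hcrt wells stayed within 1.5 times of 1050 in every alternative run, and 975 to 1054 were higher with each plate left out in turn. The number lower was 1233 to 1330 with each plate left out, 2777 with no filter on low counts and 793 with wells thinned to one depth. All 70 named genes tested after thinning kept their call. Against wells outside both classes 728 to 797 genes were higher and 702 to 813 lower with each plate left out, and 1224 were lower with no filter. For the Cartpt split 2 to 8 were higher and 1 to 3 lower with each plate left out. There 9 were higher with DESeq2, 10 higher and 7 lower with no filter, 11 higher and 4 lower with the limit at 1000 CPM, and 7 higher with the limit at 50 CPM. The difference in counts per well ran from 13239 to 17978, in genes at equal depth from 248 to 281 (156 with Pmch and Hcrt kept in the totals) and in ERCC percent from -1.03 to -0.874 with each plate left out, and the last was -0.548 with plates of at least 2 wells a class.

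Without the plate as a replicate block, 1287 genes were higher and 1318 lower than in Hcrt wells, 817 and 736 against wells outside both classes, and 3 and 3 in the Cartpt split. The block changed the call of Cartpt against wells outside both classes (1.67 without it). Signs turned for Hcrtr1 without the Q5 plates (-0.14), and against wells outside both classes for Calb1 without plate 3 (range with each plate left out -0.036 to 0.29) and for Pam without plates 1, 2, 6 and 13 (range -0.086 to 0.067). The cause was not tested. Of the named genes, 47 had a fold change that moved by over 1.5 times in at least 1 alternative against Hcrt wells, and for 1 of these, Hcrtr1, the sign changed as well. A Cartpt split with at least 3 wells a side was not run, since it left 1 plate. The median log2 fold change was -0.14 with relative log expression scaling, -0.07 with no scaling and -0.14 with DESeq2, against -0.11.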
